A study of Saccharomyces cerevisiae with 18 samples.

Results

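The genes of amino acid synthesis other than arginine, lysine and the sulfur amino acids were followed in Saccharomyces cerevisiae that lacked HAC1, produced a secreted foreign protein, or both. The set was made of 46 genes chosen by symbol, of the 5449 genes measured. TRP1 was not analysed here, so 45 members had values: 7 of histidine synthesis, 4 of the shared trunk of aromatic synthesis, 4 of the tryptophan branch, 5 of the phenylalanine and tyrosine branch, 5 of isoleucine and valine synthesis, 4 of leucine synthesis, 2 branched-chain transaminases, 5 of threonine and homoserine synthesis, 4 of serine, 3 of proline and 2 of asparagine synthesis. All 45 were read by a single probe set each and were above the background of the array on all 18 arrays.

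The study asked how secretion of a small or a larger protein changes yeast with and without Hac1p, the activator that turns on unfolded protein response genes. RNA from 18 bioreactor batch cultures was measured on 18 one-colour arrays, with 3 separate cultures for each of 6 strains. The cultures were harvested in exponential growth on glucose. The values were log2 signals.

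All strains derived from CEN.PK 113-5D, a haploid MAT a strain that carries a ura3 mutation and makes its own amino acids, and all carried a high-copy vector whose URA3 marker supplies uracil synthesis. WN was the wild type with the empty vector p426GPD. WI produced human insulin precursor and WA produced α-amylase, both behind the strong glycolytic TDH3 promoter with the same YAP3 and TA57 leader. In dN, dI and dA the HAC1 gene was replaced by a kanMX cassette, and the vectors were the same. The number of clones behind each strain was not given in the sources used here. The medium held threonine, histidine, tryptophan, phenylalanine, tyrosine, isoleucine, valine and leucine, but no serine, proline or asparagine, so most members make an amino acid that the cells could also take up.

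In yeast, most of these genes answer to Gcn4, a transcription factor whose mRNA is translated more when uncharged tRNA activates the kinase Gcn2. This general control raises many pathways together, whichever amino acid is short. Pathway factors such as Leu3 for leucine and branched-chain synthesis and Bas1 with Pho2 for histidine and purine synthesis act on top of it, and many first enzymes are also inhibited by their own end product.

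The labels were checked with HAC1 and the vector marker. HAC1 (YFL031W) was between 10.54 and 10.96 on the 9 wild-type arrays and between 1.08 and 1.75 on the 9 deletion arrays, which were all below background. URA3 was between 11.96 and 12.49 with the empty vector and between 8.71 and 10.93 in the producing strains. The MAT a genes MFA1, MFA2 and STE2 were above background on every array, the MAT α gene MF(ALPHA)2 on none, and MF(ALPHA)1 and STE3 on 16 and 14 arrays, with MF(ALPHA)1 between 7.43 and 7.96 in WA and between 3.81 and 4.52 in dN. Whether any of these shifts has a part in the results below was not tested.

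The dN arrays stood apart in their spread. The residual standard deviation over all genes was 0.361 for dN replicate 3 and 0.250 for dN replicate 2, against 0.0768 to 0.180 for the other 16 arrays. Among the 45 members, dN replicate 3 was the highest of the 3 dN arrays for 31 genes and dN replicate 2 was the lowest for 32. Results with dN are therefore given with and without dN replicate 3, whose removal from the fit also changes the variance estimate that the other comparisons share. The third dN array has no number in its title. It is called the unnumbered replicate, and it stands first where the 3 dN values are listed.

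**Figure D1:**
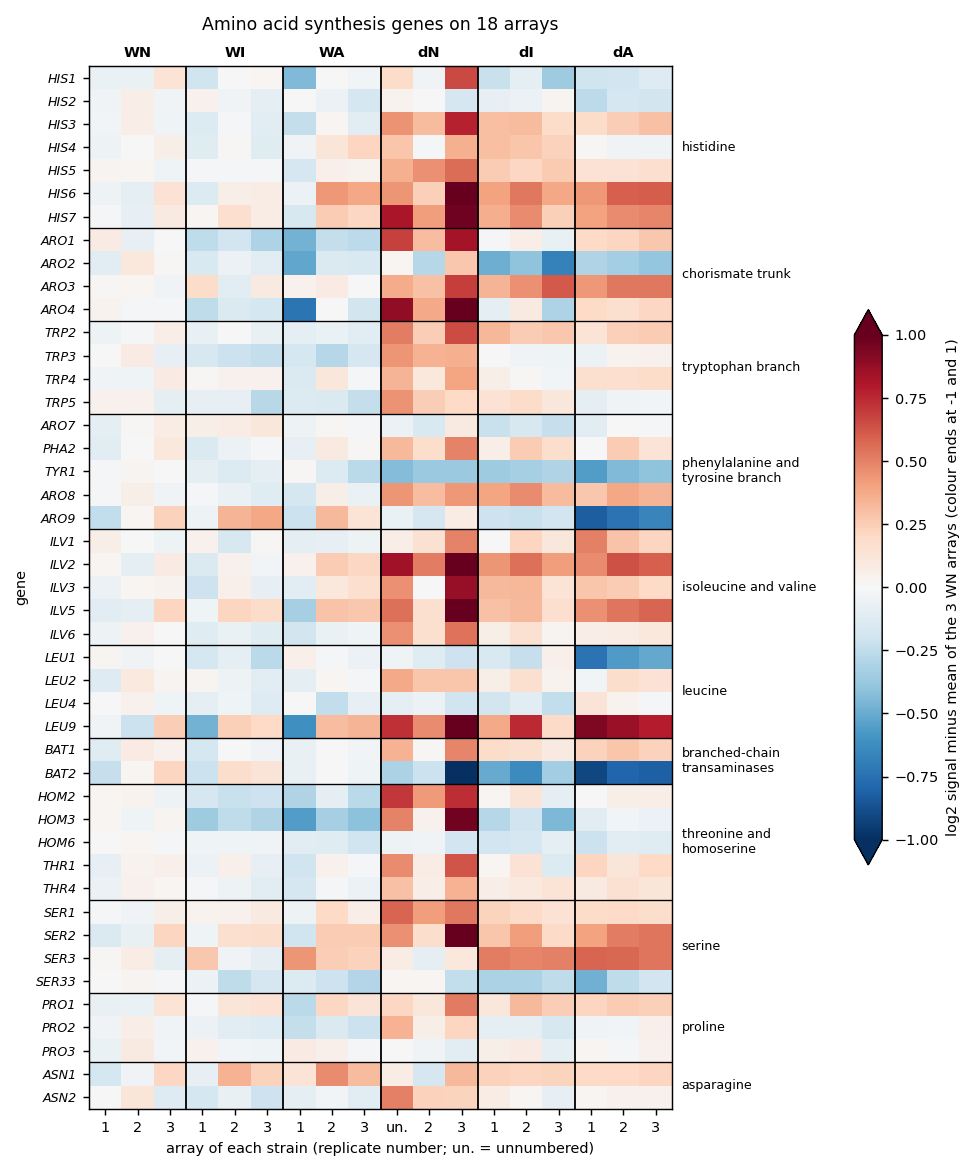
Log2 signal of each of the 45 measured genes (rows, by pathway) on each of the 18 arrays (columns, by strain), as the difference from the mean of the 3 WN arrays; colours end at -1 and 1. The dN columns hold the most red and differ among themselves, with dN replicate 3 the strongest, while the BAT2, ARO9 and TYR1 rows are blue in dA.

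Loss of HAC1 in cells with the empty vector raised more members than it lowered. Of the 45 genes, 27 were higher and 2 were lower in dN than in WN at an adjusted p under 0.05 (limma, Benjamini-Hochberg over all genes), when 9.49% of all genes were called higher and 12% lower. The median log2 fold change of the members was 0.31, against 0.03 for all genes. Without dN replicate 3, 16 members were higher and 1 was lower (10.1% and 11% of all genes), and the median was 0.25. A fit of only the 6 arrays of dN and WN called 7 members, 6 of them higher (6.29% of all genes).

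Every pathway had at least 1 called gene in the fit of all arrays, in which all 4 measured tryptophan genes were higher, as were 3 of 4 genes of the chorismate trunk, 4 of 5 of threonine and homoserine synthesis, 4 of 7 of histidine synthesis and 3 of 5 of isoleucine and valine synthesis. Serine and leucine synthesis had 2 of 4 each, proline 1 of 3 and asparagine 1 of 2. In the phenylalanine and tyrosine branch 2 genes were higher and 1 lower, and of the branched-chain transaminases 1 was higher and 1 lower. When dN replicate 3 was omitted, the higher calls were 3 in tryptophan synthesis, 3 in the trunk, 3 in histidine, 2 in isoleucine and valine, and 1 each in the phenylalanine and tyrosine branch and in threonine and homoserine, leucine, serine and asparagine synthesis, with 0 in proline synthesis and among the transaminases. Counted by the medium, 23 of 36 genes whose end product was supplied were higher (median 0.36), and 14 of 36 (median 0.27) without dN replicate 3. Of the 9 genes of the serine, proline and asparagine pathways 4 were higher (median 0.21), and 2 (median 0.16) without that array. The difference between these groups was not tested.

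The mean shift of all 45 members from the WN mean was 0.31, 0.12 and 0.45 on the dN arrays. The 3 WN arrays lay between -0.04 and 0.04. All 3 dN arrays were thus above all 3 WN arrays, but the lowest and the highest dN array differed more from each other than the lowest did from WN. For isoleucine and valine synthesis the shifts were 0.47, 0.20 and 0.80, and for the chorismate trunk 0.49, 0.17 and 0.77. The tryptophan branch was more even at 0.44, 0.23 and 0.40.

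**Figure D2:**
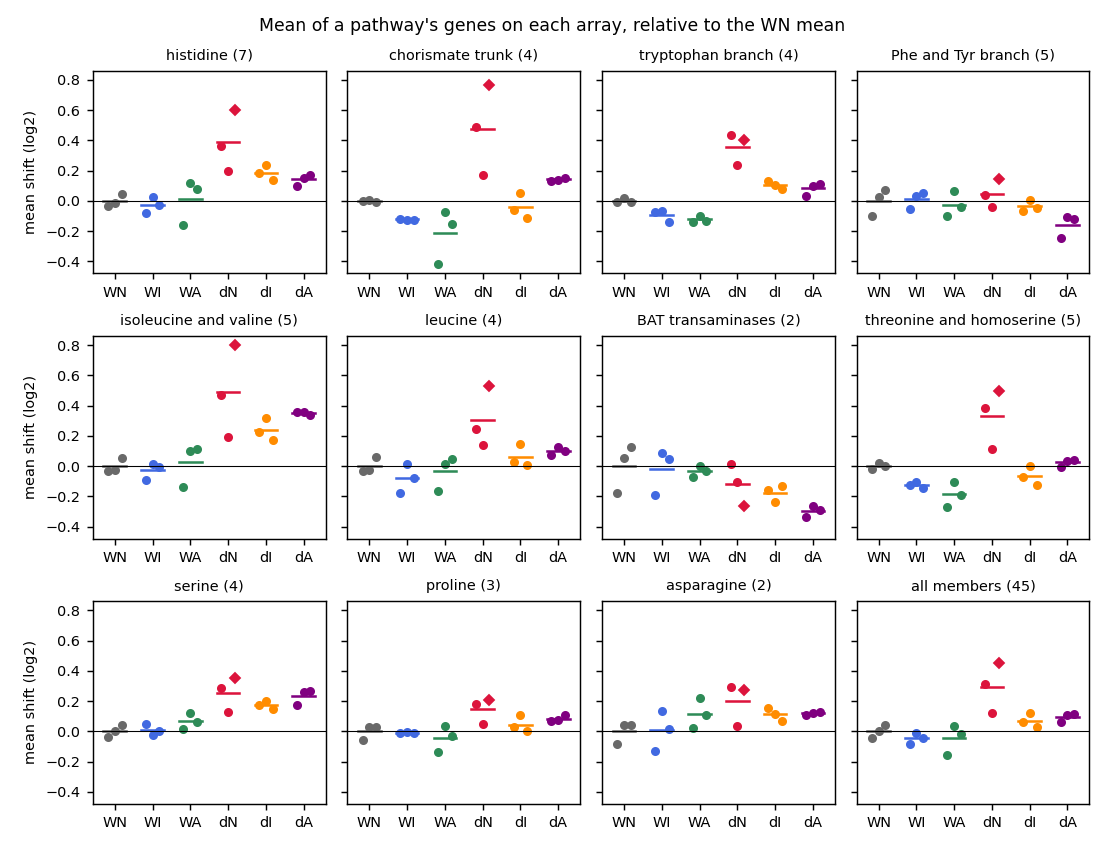
Mean log2 shift of each pathway's genes from the WN mean on each array, with the number of genes in brackets; points are arrays, lines are strain means, and the diamond is dN replicate 3. For all 45 members the dN arrays lie at 0.31, 0.12 and 0.45, the lowest of them level with the highest dI array, and the branched-chain transaminases have dA as their lowest strain.

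In histidine synthesis, which starts from phosphoribosyl pyrophosphate and ATP, HIS7 (YBR248C, the glutamine amidotransferase and cyclase) had the largest change. Its signal was 6.93, 6.86 and 7.03 in WN and 7.76, 7.36 and 7.91 in dN. All 3 dN arrays were above all WN arrays, at 1.66-fold (log2 fold change 0.73 ± 0.13 SE, adjusted p = 0.000717). HIS5, the histidinol-phosphate aminotransferase, was the most even of the pathway, with 7.76, 7.75 and 7.69 in WN and 8.09, 8.19 and 8.29 in dN (0.46 ± 0.07 SE, adjusted p = 0.000103). HIS3, the dehydratase, was 0.51 higher (adjusted p = 0.00144) and HIS6, an isomerase, 0.58 higher (adjusted p = 0.0242, and 0.0723 without dN replicate 3). HIS1, the first and feedback-controlled enzyme, HIS4, a multifunctional enzyme, and HIS2, the histidinol phosphatase, did not pass, at 0.27, 0.21 and -0.04.

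In aromatic synthesis the entry step is shared by the DAHP synthases Aro3p, inhibited by phenylalanine, and Aro4p, inhibited by tyrosine. ARO4 (YBR249C) read 8.26, 8.21 and 8.22 in WN and 9.12, 8.60 and 9.51 in dN. The WN arrays were nearly alike, the dN arrays were not, and all of them were above WN, at 1.80-fold (0.85 ± 0.19 SE, adjusted p = 0.00557). ARO3 was 0.45 higher (adjusted p = 0.00447). ARO1, the pentafunctional enzyme of the middle of the trunk, was 8.71, 8.55 and 8.64 in WN and 9.32, 8.94 and 9.47 in dN, 0.61 higher (adjusted p = 0.00071). ARO2, the chorismate synthase that closes the trunk, had a log2 fold change of 0.00 ± 0.13 SE and overlapping arrays.

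Past chorismate, the tryptophan genes and the phenylalanine and tyrosine genes differed. The tryptophan genes rose by 0.47 (TRP2, anthranilate synthase), 0.38 (TRP3, its partner, which also carries the indole-glycerol-phosphate synthase), 0.28 (TRP4, the phosphoribosyl transferase) and 0.30 (TRP5, tryptophan synthase), with adjusted p between 0.000281 and 0.0193. The call of TRP4 was lost without dN replicate 3 (adjusted p = 0.0617) and held in 2 of the 6 fits that leave out 1 array of either strain. TRP3 (YKL211C) was 8.03, 8.11 and 7.95 in WN and 8.47, 8.38 and 8.39 in dN. TYR1 (YBR166C), the prephenate dehydrogenase of the tyrosine branch, went the other way. It was 8.49, 8.54 and 8.51 in WN and 8.08, 8.14 and 8.14 in dN, with no overlap and little spread, 1.31-fold lower (-0.39 ± 0.07 SE, adjusted p = 0.000596). PHA2, the prephenate dehydratase of the phenylalanine branch, was 0.33 higher (adjusted p = 0.0181, and 0.0615 without dN replicate 3). The log2 fold change of ARO7, the chorismate mutase in front of both, was -0.04 (adjusted p = 0.683).

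In branched-chain synthesis ILV2 (YMR108W), the catalytic subunit of acetolactate synthase, was 7.79, 7.67 and 7.85 in WN and 8.61, 8.28 and 8.86 in dN. All dN arrays were above all WN arrays, at 1.76-fold (0.81 ± 0.11 SE, adjusted p = 9.3e-05). ILV6, its regulatory subunit, was 0.39 higher (adjusted p = 0.00319). ILV5, the reductoisomerase, was 9.35, 9.36 and 9.68 in WN and 10.01, 9.62 and 10.47 in dN, and its call (0.57, adjusted p = 0.0396) was lost without dN replicate 3 (adjusted p = 0.143). ILV3, the dihydroxyacid dehydratase, and ILV1, the threonine deaminase, were at 0.44 (adjusted p = 0.0524) and 0.24 (adjusted p = 0.115).

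The leucine pathway held the largest log2 fold change of any member, which came from 1 array. LEU9 (YOR108W), the minor isopropylmalate synthase, was 5.93, 5.75 and 6.21 in WN and 6.69, 6.43 and 8.20 in dN. The log2 fold change was 1.15 ± 0.37 SE (adjusted p = 0.0376), and without dN replicate 3 it was 0.60 (adjusted p = 0.119). LEU2, the isopropylmalate dehydrogenase, was 0.31 higher with and 0.33 higher without that array (adjusted p = 0.00721 and 0.00883). LEU1, the isomerase, and LEU4, the major synthase, were each at -0.12 and did not pass.

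In threonine and homoserine synthesis HOM2 (YDR158W), the aspartate semialdehyde dehydrogenase, was 9.58, 9.60 and 9.51 in WN and 10.27, 9.98 and 10.30 in dN. The groups did not overlap, and dN was 1.54-fold higher (0.62 ± 0.08 SE, adjusted p = 6.26e-05). HOM3, the aspartate kinase at the head of the pathway, THR1, the homoserine kinase, and THR4, the threonine synthase, were called at 0.50, 0.39 and 0.24, and all 3 calls were lost without dN replicate 3 (adjusted p between 0.0884 and 0.0937). HOM6, the homoserine dehydrogenase, was at -0.09.

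Of the pathways whose product was not supplied, serine had the firmest gene. SER1 (YOR184W), the phosphoserine aminotransferase, was 8.92, 8.91 and 9.00 in WN and 9.53, 9.36 and 9.47 in dN, 1.42-fold higher with no overlap (0.51 ± 0.07 SE, adjusted p = 3.69e-05, the smallest of the 45 members). SER2, the phosphatase that ends the pathway, was 0.55 higher, and its call was lost without dN replicate 3 (adjusted p = 0.0359 and 0.125). The phosphoglycerate dehydrogenases SER3 and SER33 were at 0.03 and -0.07. In proline synthesis PRO2 passed at 0.21 (adjusted p = 0.0412, and 0.0692 without dN replicate 3), while PRO1 and PRO3 were at 0.28 and -0.05. Of the asparagine synthetases, ASN2 was 0.32 higher (adjusted p = 0.0126), a call that held in 4 of 6 fits leaving out an array. ASN1 was at 0.08 (adjusted p = 0.719).

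Loss of HAC1 in the producing strains was compared in the same way. With insulin precursor, 10 members were higher and 5 lower in dI than in WI (9.47% and 10.8% of all genes), with a median of 0.15. With α-amylase, 10 were higher and 4 lower in dA than in WA (9.6% and 13.6% of all genes), with a median of 0.19. Neither comparison uses a dN array, but both share the variance estimate, and without dN replicate 3 in the fit 15 members were higher and 5 lower in dI (16.3% and 13.7% of all genes) and 20 higher and 4 lower in dA (15.3% and 18.4%). When only the arrays of a pair of strains were fitted, 21 members were called in dI (29.1% of all genes) and 17 in dA (26.4%). The order of the 3 deletion comparisons by number of calls thus turned with the fit: with all arrays dN had the most calls, and in both of these alternatives it had the fewest. In the fit of all arrays, tryptophan genes were higher in 3 of 4 cases in dI and 2 of 4 in dA, histidine genes in 3 of 7 and 1 of 7, and trunk genes in 1 of 4 and 2 of 4, with ARO2 lower in dI. No gene of proline or asparagine synthesis was called in either (limma), with 0 of these 5 genes at an unadjusted p under 0.05 in dI and 1, PRO2, in dA, which passed without dN replicate 3 in the fit (0.19, adjusted p = 0.0401). In threonine and homoserine synthesis HOM2 was called in dA (0.27, adjusted p = 0.0305), a call that held in 1 of 6 fits leaving out an array, and was at 0.22 in dI (adjusted p = 0.0842). HOM2 passed without dN replicate 3 in the fit in dI (adjusted p = 0.0486), and HOM2, HOM3 and THR4 in dA (adjusted p = 0.0159, 0.00892 and 0.0262).

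**Figure D3:**
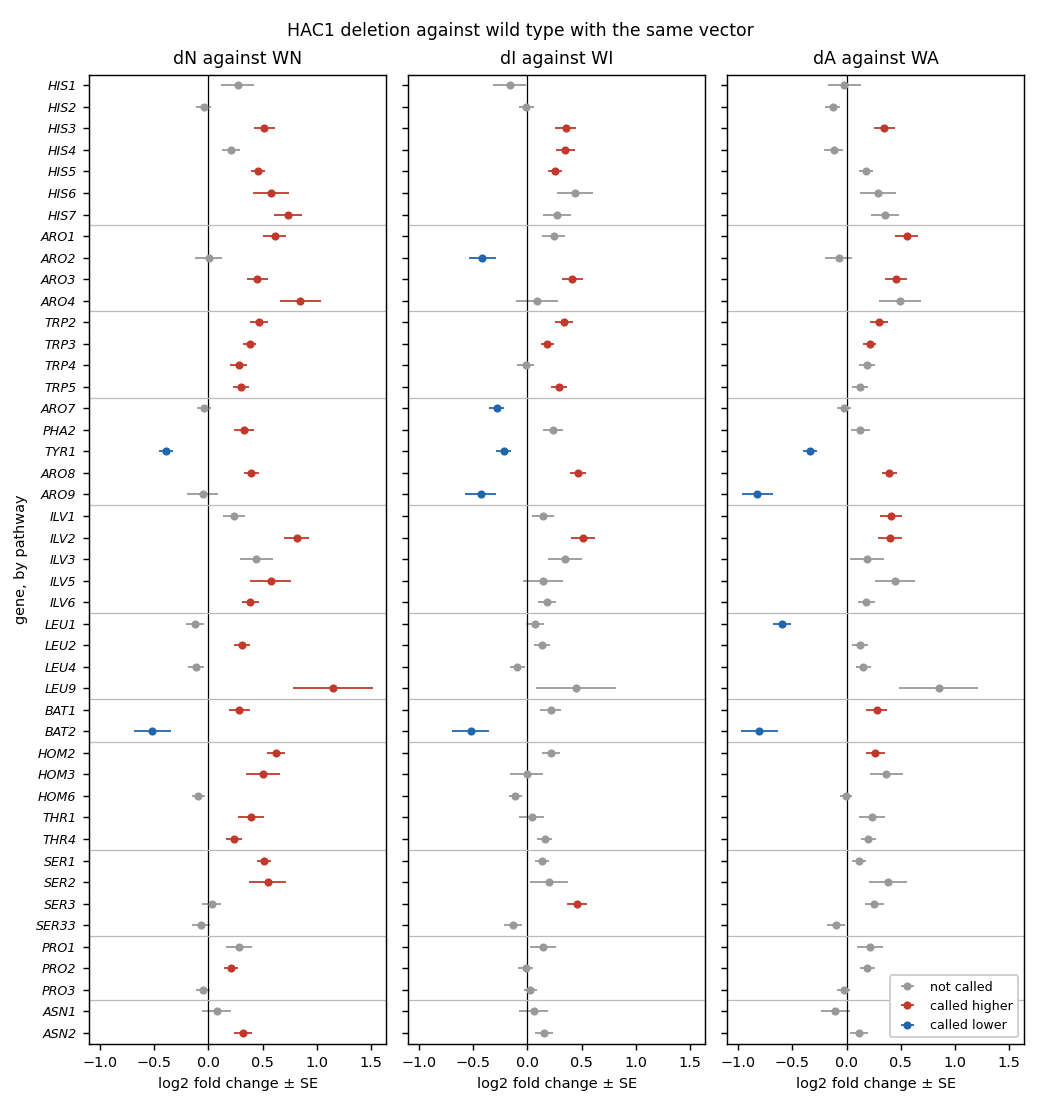
Log2 fold change ± SE of each of the 45 genes in the 3 comparisons of a HAC1 deletion strain with the wild type carrying the same vector; red and blue points passed an adjusted p under 0.05. BAT2 and TYR1 are blue in all 3 panels, and LEU1 is blue only in dA.

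The 3 comparisons share no array and are set beside each other here. They do share the variance estimate of each gene, so calls of a gene in all 3 are not independent. Members called higher in all 3 were HIS3, ARO3, TRP2, TRP3, ARO8 and ILV2, which is 6 of 45 (13.3%) against 1.8% of all genes. Members called lower in all 3 were TYR1 and BAT2, 2 of 45 (4.44%) against 7.03% of all genes. Without dN replicate 3 the first group gained ARO1, HIS5 and HOM2 and stood at 9 (20% against 2.68% of all genes), while BAT2 left the second, which stood at 1 (2.22% against 7.38%). Without dA replicate 3, HIS3, TRP2, TRP3 and ILV2 lost their calls in dA, which left ARO3 and ARO8. These were also the only genes of the 6 whose calls held in every fit that left out an array of the strains compared. Of the 6 such fits of dI against WI, TRP3 and TYR1 were called in 0 and BAT2 in 1. Of the 45 members, 28 had a positive log2 fold change in all 3 comparisons (62.2%, against 32.4% of all genes). A negative one in all 3 was found for 7 (15.6%, against 24.7% of all genes). Over the 45 members the log2 fold changes correlated at r = 0.701 between dN and dI, 0.822 between dN and dA and 0.708 between dI and dA, beside 0.761, 0.783 and 0.738 over all genes. The points of these correlations are genes measured on the same arrays, and they describe likeness only.

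ARO8 (YGL202W) encodes the aromatic aminotransferase I. It was 8.96, 9.04 and 8.95 in WN, 8.96, 8.91 and 8.86 in WI and 8.81, 9.04 and 8.92 in WA. In the deletion strains it was 9.42, 9.29 and 9.42 in dN, 9.38, 9.46 and 9.30 in dI and 9.25, 9.37 and 9.32 in dA. Every deletion array was above every wild-type array, and the log2 fold changes were 0.40, 0.47 and 0.39 (adjusted p = 0.000768, 0.000168 and 0.000744). ILV2 rose by 0.81, 0.51 and 0.40 and ARO3 by 0.45, 0.41 and 0.45 in the same order. HIS4 was called only with insulin precursor, with 9.25, 9.38 and 9.25 in WI and 9.68, 9.65 and 9.60 in dI (0.35 ± 0.09 SE, adjusted p = 0.0101), and was at -0.12 with α-amylase. ILV1 was called only with α-amylase (0.41, adjusted p = 0.00934), at 0.14 with insulin precursor.

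The genes that were lower without HAC1 in the producing strains were ARO2, ARO7, TYR1, ARO9 and BAT2 in dI and TYR1, ARO9, LEU1 and BAT2 in dA. ARO9 (YHR137W), the aromatic aminotransferase II, which also starts the breakdown of aromatic amino acids and is induced by them, was 7.43, 7.97 and 7.79 in WA and 6.83, 6.91 and 6.99 in dA. All dA arrays were below all others of the series for this gene, and dA was 1.77-fold below WA (-0.82 ± 0.14 SE, adjusted p = 0.000645). In dI it was 0.43 lower than in WI (adjusted p = 0.0451), a call that held in 1 of 6 fits leaving out an array. The call of ARO2 in dI also held in 1 of 6. In dN ARO9 was at -0.05 against WN. BAT2 (YJR148W), the cytosolic branched-chain transaminase, was 9.03, 9.10 and 9.06 in WA and 8.19, 8.30 and 8.29 in dA, 1.75-fold lower (-0.80 ± 0.17 SE, adjusted p = 0.00295). It was also 0.52 lower in dI than in WI (adjusted p = 0.0415). In dN its 3 arrays were 8.78, 8.88 and 8.08 against 8.87, 9.12 and 9.31 in WN, and the call there (-0.52, adjusted p = 0.0427) was lost without dN replicate 3 (-0.27, adjusted p = 0.146). TYR1 was 0.22 lower in dI (adjusted p = 0.0294) and 0.34 lower in dA (adjusted p = 0.00173). ARO7 was 0.28 lower in dI only (adjusted p = 0.00614), at -0.03 in dA.

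LEU1 (YGL009C), the isopropylmalate isomerase, was low in a single strain. It was 7.66, 7.60 and 7.63 in WN, 7.45, 7.54 and 7.36 in WI, 7.68, 7.61 and 7.57 in WA, 7.59, 7.50 and 7.42 in dN, 7.47, 7.40 and 7.68 in dI, and 6.89, 7.07 and 7.12 in dA. Every dA array was below the other 15 arrays. The log2 fold change of dA was -0.60 against WA (adjusted p = 7.03e-05), -0.48 against dN (adjusted p = 0.00132) and -0.49 against dI (adjusted p = 0.00718). LEU2, the next enzyme, was 7.80, 8.01 and 7.98 in dA and 7.74, 7.85 and 7.82 in WA, overlapping, at 0.13 (adjusted p = 0.239).

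Production in the wild type moved no member past the threshold in the fit of all arrays. With insulin precursor 0 of 45 members were called (limma, 0.294% of all genes), and 4 were lower and 0 higher at an unadjusted p under 0.05. With α-amylase 0 members were called (4.79% of all genes), and 9 were lower and 2 higher at an unadjusted p under 0.05. The shares of all genes in brackets are at an adjusted p under 0.05. No share at an unadjusted p is given here or below, so the unadjusted counts have no background to be read against. The median log2 fold change was -0.05 with insulin precursor and -0.04 with α-amylase. Without dN replicate 3 in the fit, α-amylase had 4 calls, with 5.74% of all genes called higher and 3.8% lower. These were ARO1 (-0.32, adjusted p = 0.0303), TRP3 (-0.21, adjusted p = 0.0371) and HOM3 (-0.43, adjusted p = 0.0105) lower, and SER3 (0.31, adjusted p = 0.0372) higher. For insulin precursor the count stayed at 0 (limma, 0.991% of all genes), with 4 lower and 0 higher at an unadjusted p under 0.05 in the fit of all arrays.

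The HOM genes had the same sign in both producing strains, though none was called in the fit of all arrays. HOM3 was called in WA without dN replicate 3 in the fit, as given above. HOM3 was 7.88, 7.81 and 7.89 in WN, 7.50, 7.61 and 7.56 in WI and 7.30, 7.52 and 7.45 in WA. HOM2 was 9.58, 9.60 and 9.51 in WN, 9.39, 9.34 and 9.36 in WI and 9.26, 9.47 and 9.29 in WA. No producing array reached a WN array for either gene. In the fit of all arrays (limma) the adjusted p values were 0.852 and 0.139 for HOM3 and 0.786 and 0.166 for HOM2. They are in the order insulin precursor and α-amylase, and both comparisons use the same WN arrays.

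Production without HAC1 lowered members relative to dN. Of the 45 members, 14 were lower and 1 was higher in dI than in dN (5.78% and 7.05% of all genes), and 12 were lower and 1 was higher in dA than in dN (5.85% and 5.91% of all genes). The medians were -0.18 and -0.22. Both comparisons rest on the dN arrays, which also enter the comparison of dN with WN, where an array that is high shifts the members up and here shifts them down. Without dN replicate 3 the medians were -0.11 and -0.14, with 10 lower and 1 higher in dI (7.93% and 8.7% of all genes) and 14 lower and 1 higher in dA (13.7% and 10.9%). In a fit of only the 2 strains compared, dI had 0 calls (limma, 1.3% of all genes) and dA 2 (1.5%). At an unadjusted p under 0.05 the fit of all arrays had 22 and 26 members, with no share of all genes beside them.

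**Figure D4:**
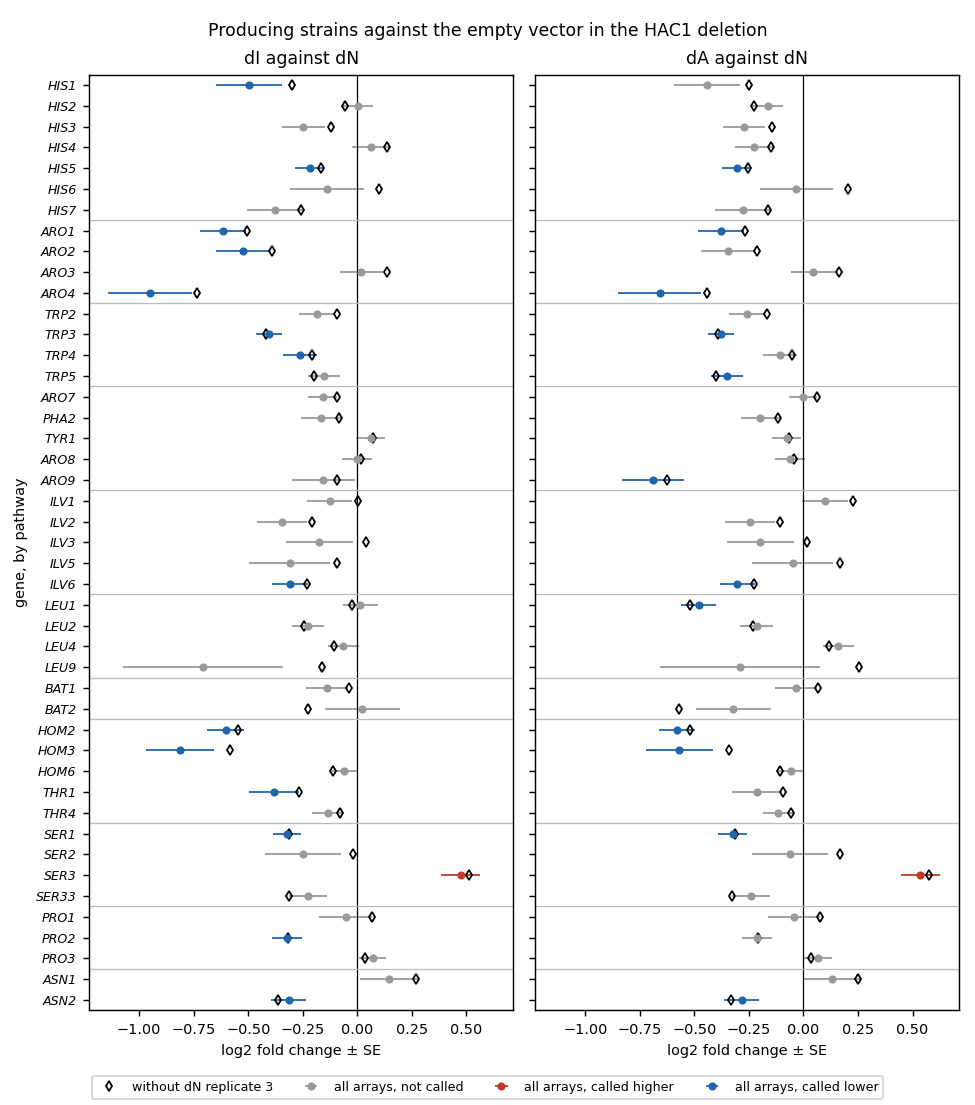
Log2 fold change ± SE of each of the 45 genes in dI and in dA against dN (filled points; blue and red passed an adjusted p under 0.05) and the same value without dN replicate 3 (open diamonds). Most points lie left of 0, SER3 lies right of it at 0.47 and 0.54, and for LEU9 the diamond is far from the point.

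ARO4 was 9.12, 8.60 and 9.51 in dN, 8.14, 8.32 and 7.92 in dI and 8.43, 8.39 and 8.43 in dA. Both producing strains were below every dN array, by 0.95 (adjusted p = 0.00479) and 0.66 (adjusted p = 0.0373) on the log2 scale. Without dN replicate 3 the first value was -0.73 and still passed (adjusted p = 0.00956), and the second was -0.44 and did not (adjusted p = 0.0768). HOM3 was 8.36, 7.90 and 8.82 in dN, 7.57, 7.66 and 7.41 in dI and 7.74, 7.83 and 7.80 in dA, again below every dN array (-0.81 and -0.57, adjusted p = 0.00314 and 0.0254). Its calls held without dN replicate 3, at -0.58 and -0.34 (adjusted p = 0.00213 and 0.0336).

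Genes with more even dN arrays than these changed as well. HOM2 was 9.58, 9.69 and 9.47 in dI and 9.56, 9.62 and 9.63 in dA, against 9.98 to 10.30 in dN (-0.60 and -0.58, adjusted p = 0.000237 and 0.000375). TRP3 was 8.03, 8.00 and 7.99 in dI and 7.97, 8.06 and 8.07 in dA, against 8.38 to 8.47 in dN (-0.41 and -0.38, adjusted p = 0.00043 and 0.000862). For both genes dI and dA overlapped WN. SER1 was 0.32 lower in dI and 0.32 lower in dA, at 9.09 to 9.16 against 9.36 to 9.53 in dN (adjusted p = 0.00479 and 0.00474). ASN2, the asparagine synthetase that had risen in dN, was 0.32 and 0.28 lower (adjusted p = 0.0206 and 0.0367). Its dN arrays were 10.19, 9.91 and 9.90. These calls held in 4 of 6 fits leaving out an array in dI and in 2 of 6 in dA. In both comparisons the call was lost without the unnumbered dN array.

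SER3 (YER081W), the first enzyme of serine synthesis, was the only member higher in both. It was 9.68, 9.52 and 9.72 in dN, 10.12, 10.10 and 10.11 in dI and 10.20, 10.19 and 10.14 in dA. Every producing array was above every dN array, by 0.47 ± 0.09 (SE) and 0.54 ± 0.09 (SE) on the log2 scale (adjusted p = 0.00322 and 0.00129). In the wild type it was 9.62, 9.69 and 9.52 in WN, 9.88, 9.57 and 9.52 in WI, which overlapped WN, and 10.05, 9.86 and 9.84 in WA, which did not (0.31, adjusted p = 0.0697).

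The remaining calls against dN were smaller or fell in one strain. ARO1 was lower in both (-0.62 and -0.38, adjusted p = 0.00159 and 0.03), with the second lost without dN replicate 3 (adjusted p = 0.0612). HIS5 and ILV6 were lower in both, by 0.22 and 0.31 for HIS5 and by 0.31 and 0.30 for ILV6, with both calls in dI lost without dN replicate 3 (adjusted p = 0.102 and 0.0585). HIS1, ARO2, TRP4, THR1 and PRO2 passed only in dI, between -0.26 and -0.52, and TRP5, ARO9 and LEU1 only in dA, between -0.35 and -0.69. The calls of HIS1, TRP4 and THR1 in dI were lost without dN replicate 3 (adjusted p = 0.115, 0.0927 and 0.114). A call in dI but not in dA is no difference between them. Of all members LEU1 alone differed between dA and dI (1 of 45, with 0.716% of all genes called lower), and without dN replicate 3 in the fit HIS4 (-0.29, adjusted p = 0.0365) and ARO9 (-0.53, adjusted p = 0.0314) did so too (4.53% of all genes called lower). Between WA and WI no member differed (limma, 0 of 45, 0.496% of all genes), with 2 higher and 0 lower at an unadjusted p under 0.05.

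Whether a protein's effect differed between the deletion and the wild type was tested as an interaction. For insulin precursor 0 members passed (limma, 0.716% of all genes), with 13 lower and 1 higher at an unadjusted p under 0.05. For α-amylase 1 member passed (1.34% of all genes), with 7 lower and 1 higher at an unadjusted p under 0.05. These unadjusted counts were not set against all genes. That gene was SER1, whose log2 fold change by α-amylase was 0.07 in the wild type and -0.32 in the deletion strain (difference -0.39 ± 0.09 SE, adjusted p = 0.0499). Without dN replicate 3 SER1 (adjusted p = 0.0255) and LEU1 (-0.51, adjusted p = 0.0148) passed, both lower, as did 4.61% of all genes. Most of the changes that were called in 1 background only were thus not shown to differ from the other.

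Isoenzyme pairs often moved apart. Since each gene was read by its own probes, only shifts of each gene from WN are compared. For the branched-chain transaminases, mitochondrial BAT1 was just past the threshold in dN (0.28, adjusted p = 0.0495) and dA (0.28, adjusted p = 0.0489) and was at 0.21 in dI against WI (adjusted p = 0.14), while cytosolic BAT2 was called lower in all 3. The BAT1 call in dN was lost without dN replicate 3 (adjusted p = 0.175) and held in 1 of 6 fits leaving out an array, and that in dA held in 0 of 6. BAT1 was 8.25, 8.45 and 8.41 in WN and 8.60, 8.65 and 8.61 in dA. Relative to WN, the log2 ratio of BAT1 to BAT2 was 1.09 ± 0.05 (SD, n = 3) in dA, 0.64 ± 0.19 (SD, n = 3) in dI and 0.80 ± 0.65 (SD, n = 3) in dN. It was 0.00 ± 0.01 (SD, n = 3) in WA and -0.10 ± 0.12 (SD, n = 3) in WI.

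ARO8 and ARO9 showed the same kind of split, with a ratio of 1.07 ± 0.07 (SD, n = 3) in dA, 0.60 ± 0.10 (SD, n = 3) in dI and 0.45 ± 0.08 (SD, n = 3) in dN. SER3 and SER33 split in WA, dI and dA instead, and less in WI. Their ratio was 0.10 ± 0.24 (SD, n = 3) in dN, 0.52 ± 0.06 (SD, n = 3) in WA, 0.80 ± 0.03 (SD, n = 3) in dI and 0.87 ± 0.17 (SD, n = 3) in dA. In WI it was 0.21 ± 0.12 (SD, n = 3), within the dN range of -0.11 to 0.35. SER33 (YIL074C) was 7.95, 7.98 and 7.94 in WN, 7.90, 7.70 and 7.79 in WI and 7.82, 7.75 and 7.67 in WA. In the deletion strains it was 7.98, 7.98 and 7.71 in dN, 7.64, 7.64 and 7.70 in dI and 7.48, 7.70 and 7.77 in dA. It passed in no comparison with all 18 arrays. Without dN replicate 3 it joined SER1 as called lower than dN in dI and in dA (7.93% and 13.7% of all genes).

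For the DAHP synthases the ratio of ARO3 to ARO4 was -0.40 ± 0.28 (SD, n = 3) in dN and 0.57 ± 0.31 (SD, n = 3) in dI. ARO3 was 8.27, 8.20 and 8.59 in dN and 8.24, 8.36 and 8.51 in dI, so that the difference came from ARO4. LEU4, whose 18 values lay between 9.59 and 9.96, was called in no comparison, and the ratio of LEU4 to LEU9 was -0.81 ± 0.01 (SD, n = 3) in dA and -1.26 ± 1.03 (SD, n = 3) in dN. LEU9 was 6.89, 6.82 and 6.74 in dA, above the 5.35, 6.27 and 6.30 of WA, at 0.85 (adjusted p = 0.111, and 0.0115 without dN replicate 3 in the fit). ASN1 was between 9.99 and 10.64 over the series with no call, and its ratio to ASN2 was -0.24 ± 0.30 (SD, n = 3) in dN and 0.39 ± 0.14 (SD, n = 3) in WA.

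**Figure D5:**
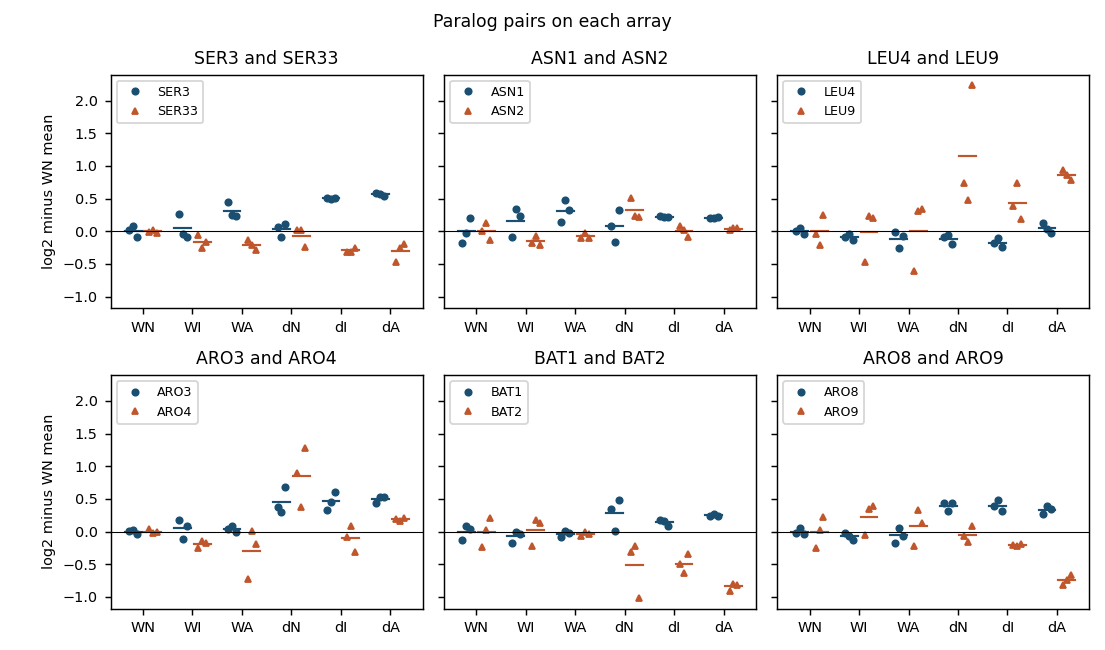
Log2 signal minus the WN mean on each array for 6 isoenzyme pairs; points are arrays and lines are strain means. BAT1 and BAT2, and ARO8 and ARO9, lie apart in the deletion strains and most in dA, SER3 and SER33 lie apart in dI and dA, and the single high LEU9 point is dN replicate 3.

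In the fit of all arrays, 8 of the 45 members passed in none of the 11 comparisons and interactions: HIS2, ILV3, LEU4, HOM6, SER33, PRO1, PRO3 and ASN1. A further 12 passed in 1, and 5 in 2, with 15 in 3. HIS5, ARO1, HOM2 and SER1 passed in 4 and TRP3 in 5. Many of these comparisons share arrays, so the counts describe how often a gene appears and are not independent. They were not set against all genes and are no result about the members as a set.

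Of 8 listed regulators of these pathways, 2 were higher in dN than in WN (25%, against 9.49% of all genes). LEU3 was 5.06, 5.16 and 5.49 in WN and 5.65, 5.61 and 5.84 in dN (0.47, adjusted p = 0.00859), and BAS1 was 0.33 higher (adjusted p = 0.0324, and 0.113 without dN replicate 3). GCN4, whose control is mainly translational, was 10.65, 10.72 and 10.91 in WN and 10.79, 10.80 and 10.87 in dN, which overlapped (0.06, adjusted p = 0.633). Its mRNA was 11.12, 11.10 and 11.15 in dI, higher than in WI (0.24, adjusted p = 0.0385) and than in dN (0.31, adjusted p = 0.0194), and it was higher in WA than in WN (0.29, adjusted p = 0.0499). GCN4 thus passed in 3 comparisons, though its WA arrays (10.88, 11.09 and 11.16) overlapped those of WN. Whether its mRNA level has a part in the changes of the members was not tested. PHO2 was higher in dI (0.24, adjusted p = 0.0175), PUT3, the activator of proline use, was higher in dA (0.27, adjusted p = 0.00953), and GCN2, CHA4 and ARO80 passed nowhere.

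Of 10 listed amino acid permeases, BAP2, a carrier of branched-chain amino acids, was higher in each deletion strain. It was 8.40, 8.32 and 8.17 in WN and 8.91, 8.85 and 8.66 in dN (0.51, adjusted p = 0.00351), 0.47 higher in dI (adjusted p = 0.00655) and 0.61 higher in dA (adjusted p = 0.000821). HIP1, the histidine permease, was higher in dN alone of the 3 (0.46, adjusted p = 0.0163, and 0.056 without dN replicate 3). AGP1, a broad permease, followed production. It was 6.87, 6.96 and 7.37 in WN, 7.72, 7.89 and 7.83 in WA, 6.61, 6.73 and 7.07 in dN, 7.60, 7.67 and 7.48 in dI and 7.66, 7.40 and 7.40 in dA. All 9 of its producing arrays outside WI were above all WN and dN arrays (0.75 in WA, 0.78 in dI and 0.69 in dA, adjusted p = 0.0149, 0.00534 and 0.0131), while WI overlapped WN (0.35, adjusted p = 0.815). GAP1, the general permease, was higher in WA (0.70, adjusted p = 0.0442) and dI (0.60, adjusted p = 0.0469). GNP1, a glutamine permease with a broad range, was 0.22 lower in dI than in dN (adjusted p = 0.0341).

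PUT4 encodes the proline permease. It was below background on all 3 WN arrays and above it on all 3 of WA (4.95, 5.49 and 5.12) and of dI (5.80, 5.94 and 5.53). WA was at least 1.65-fold above WN (adjusted p = 0.000179). This bound sets the WA mean against the lowest signal that counts as above background. In dA only 1 of 3 arrays was above background (4.52, 4.46 and 4.48), and all 3 were below every WA and dI array. The fit called dA lower than dI and WA (adjusted p = 0.00106 and 0.00299), with no size given because dA lay at background.

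Among 11 listed genes of amino acid breakdown and glycine metabolism, ARO10, the decarboxylase that follows Aro9p in the breakdown of aromatic amino acids, was lower in each deletion strain. It was 7.05, 7.33 and 7.28 in WA and 6.15, 6.22 and 6.36 in dA (-0.97 ± 0.16 SE, adjusted p = 0.000504), 0.66 lower in dI than in WI (adjusted p = 0.0104) and 0.48 lower in dN than in WN (adjusted p = 0.0497, and 0.178 without dN replicate 3). CHA1, the catabolic serine and threonine deaminase, was above background on the 3 dN arrays (4.80, 4.86 and 4.60) and on none of the other 15. It was at least 1.22-fold above WN, 1.13-fold above dI and 1.21-fold above dA (adjusted p = 6.37e-05, 0.0239 and 0.000156), by the same bound. GLY1, the threonine aldolase, was 0.37 higher in dN than in WN (adjusted p = 0.0241) and 0.35 lower in dA than in dN (adjusted p = 0.0483). SHM1, the mitochondrial serine hydroxymethyltransferase, was higher in dA (0.34, adjusted p = 0.00272), and ASP1, an asparaginase, was 0.40 lower in dI (adjusted p = 0.037).

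The glycine cleavage genes and SHM2, the cytosolic serine hydroxymethyltransferase, varied within strains. GCV2 was 5.47, 5.58 and 6.63 in WN and 6.21, 5.94 and 7.32 in dN, and SHM2 was 9.07, 9.14 and 9.97 in WN and 9.33, 9.02 and 10.33 in dN. In both strains replicate 3 was the highest array, and GCV1, GCV2, GCV3 and SHM2 were called in no comparison with all 18 arrays. That holds for this fit only. Of the 11 listed genes of breakdown and glycine metabolism, 0 were higher and 3 lower in dA than in dN with all arrays. Without dN replicate 3 the counts were 3 higher and 4 lower (10.9% and 13.7% of all genes). Which genes these were is not given here.

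Of 8 listed genes that supply precursors, PRS3 and PRS4, phosphoribosyl pyrophosphate synthetases that feed histidine and tryptophan synthesis, were higher in dN (0.44 and 0.46, adjusted p = 0.0447 and 0.0118), the first of them only with dN replicate 3. PRS2 was higher in dA (0.35, adjusted p = 0.0336). TKL1, the transketolase that makes erythrose phosphate for aromatic synthesis, was higher in dI (0.24, adjusted p = 0.0172). OAC1, the mitochondrial carrier that exports isopropylmalate for leucine synthesis, was 0.37 lower in dI than in dN (adjusted p = 0.021, and 0.055 without dN replicate 3).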

How the data were processed

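The deposited log2 signals came from Affymetrix Yeast Genome 2.0 arrays. Per the study's methods, the authors summarised perfect-match probes in R 2.10.1 with RMA background correction, normalized arrays by qspline, and applied a median polish. They were used as deposited. Because arrays were scaled to each other, a change in total mRNA per cell is not visible, and a change in the number of cells that express a gene cannot be told apart from a change per cell. The label of WN replicate 1 gives another lysis than the other 17 labels, whereas the paper describes a single procedure.

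Of 10928 probe sets, 5498 were paired with a S. cerevisiae gene (5449 genes; the brightest probe set of 47 genes with several). Background was the 95th percentile of 5430 other probe sets, 4.38 to 4.63 per array. A mean per strain was estimated from 18 arrays (limma 3.58.1, run under R 4.3.3), leaving 12 degrees of freedom for the residuals, and p was adjusted by Benjamini-Hochberg over 5449 genes. The dN spread tends to make standard errors against dN too small. The script was checked on simulated data.

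The members and lists were chosen with earlier results of these data known. Values are given for up to 5 called, non-overlapping members with the largest change per comparison. For these, non-overlap was a condition of the choice and adds nothing to the call. No share of all genes without overlap is given. Values are also given for isoenzyme pairs, called interactions, and up to 4 genes per surrounding list. Others are given briefly. The alternatives tried were fitting just the compared strains, a replicate block, all probe sets, dim genes out, probe set means, quantile normalization, median centring, an intensity trend, array weights, and leaving out dN replicate 3 or each array.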

Additional observations from a re-analysis of the deposited data

Results flagged for a closer look

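Of the members, SER1 was flagged because the effect of α-amylase differed between backgrounds by a test of the difference: the log2 fold change was lower in the deletion strain by 0.39 ± 0.09 (SE, value -0.39, adjusted p = 0.0499, limma), with 3 of 3 dA arrays below every dN array. It passed in 3 of the 12 fits that leave out an array of the 4 strains.

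Outside the members, PUT4 was flagged by the same test for both proteins. Its fitted interaction was 1.01 ± 0.21 (SE, adjusted p = 0.0465) for insulin precursor and -0.95 ± 0.21 (SE, adjusted p = 0.0394) for α-amylase. These sizes and signs are not measured differences in expression, since 0 of 3 WN arrays, 1 of 3 dN arrays and 1 of 3 dA arrays were above background. CHA1 had a fitted interaction of -1.05 ± 0.20 (SE, adjusted p = 0.016) for α-amylase, with the same limit: it was above background only on the 3 dN arrays.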

How the results depend on the processing

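No named member's call reversed its direction under any alternative run. Counts of called members moved most with the treatment of the spread. Where no share of all genes is given here or above for a setting, its counts were not set against all genes. Such counts describe how the fit behaves and are no result about the members. With array weights, members called were 32 in dN against WN, 27 in dI against WI, 32 in dA against WA, 1 in WI against WN, 13 in WA against WN, 26 in dA against dN, 3 in WA against WI, 15 in dA against dI, and 8 and 13 in the interactions of insulin precursor and α-amylase. In fits of only the strains compared they were 7 in dN against WN, 21 in dI against WI, 17 in dA against WA, 1 in WA against WN, 0 in dI against dN (limma; in the fit of all arrays 21 were lower and 1 higher at an unadjusted p under 0.05), 2 in dA against dN, 4 in dA against dI and 0 in the α-amylase interaction. With dN replicate 3 out of every fit they were 17 in dN against WN, 20 in dI against WI, 24 in dA against WA, 4 in WA against WN, 3 in dA against dI and 2 in the α-amylase interaction. Median centring gave 1 in WA against WN, and both quantile normalization and all probe sets gave 0 in the α-amylase interaction.

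The replicate numbers gave no clear pairing: same-numbered arrays correlated at a median r of 0.06 (-0.56 to 0.67 over 40 pairs, 17 above 0.1). Arrays with different numbers had a median r of -0.03 (-0.71 to 0.70 over 80 pairs, 24 above 0.1). Whether a number marks a shared batch was not tested. The block on replicate number, with the unnumbered dN array out, called 9 in dI against dN, 8 in dA against dN, 2 in dA against dI and 0 in the α-amylase interaction. Leaving that array out with no block, added after seeing the data, gave 8 in dA against dN and 0 in the α-amylase interaction.

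Leaving out 1 array at a time gave 17 (without WN replicate 2) to 33 (without dN replicate 2) calls in dN against WN, 8 to 11 in dI against WI, 8 to 16 in dA against WA, 0 to 1 in WA against WN, 8 to 24 in dI against dN and in dA against dN (24 without dN replicate 2 in both), 1 in dA against dI, 0 in WI against WN and WA against WI, 0 to 6 in the insulin precursor interaction and 0 to 4 in that of α-amylase. In dN against WN 16 of the 29 called members were called in every such fit, in dI against WI 8 of 15, in dA against WA 7 of 14, in dI against dN 8 of 15 and in dA against dN 8 of 13. With 3 cultures per strain, differences within the standard errors given were not detectable. Larger ones could also go uncalled, as for LEU9 in dA against WA. An uncalled gene was thus not shown to be unchanged.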
